A study of Drosophila melanogaster with 6 samples.

Results

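The imaginal disc growth factors (Idgf) and the adenosine deaminase growth factors (Adgf) are secreted proteins of *Drosophila*. The 10 genes described here are *Idgf1*, *Idgf2*, *Idgf3*, *Idgf4* and *Idgf5*, and *Adgf-A*, *Adgf-A2*, *Adgf-B*, *Adgf-C* and *Adgf-D*. They were found by symbol among the 14540 rows of an RNA-seq table, and they occupy 9 rows. *Adgf-A* shares its row with a gene listed as *Msi*, and *Msi* is an older symbol of *Adgf-A2* in the RefSeq gene table. The levels of *Adgf-A* and *Adgf-A2* therefore cannot be separated here. The rule that names them uses gene symbols and no level, though earlier results of these data were known when it was made.

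Idgf proteins are built like chitinases but lack a catalytic residue of those enzymes, and they are known for promoting the growth of imaginal disc cells in culture together with insulin. Adgf proteins carry an adenosine deaminase domain and convert extracellular adenosine to inosine. *Adgf-A* limits adenosine in the larval blood, and its loss leads to an excess of blood cells and to melanotic tumours. S2 cells have properties of blood cells (hemocytes).

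The SIN3 187HA line was made from S2 by stable transfection with an HA-tagged copy of the isoform SIN3 187, placed under a metallothionein promoter that copper switches on. S2 cells, a wild type line derived from embryos, had no transgene and served as the control. Both groups received CuSO4, at 0.07 µM according to the sample labels and at the same figure in M according to the methods, and 48 h of treatment is stated for replicate 1 of each. The methods name Geneticin and penicillin/streptomycin for the transfected lines and gentamycin for S2 cells, whereas the labels name gentamycin for all samples. Whether the transfected line is a single clone is not stated. The paper reports that the main SIN3 isoform of the control cells was almost lost, as protein, from the transfected line. Effects of gaining SIN3 187, of losing that main isoform, of transfection and of culture cannot be told apart in this design.

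There were 3 biological replicates in each group, which the authors combined, so that the table has 1 FPKM value per row and group (fragments per kilobase of transcript, scaled to the number of mapped fragments). The test statistics that the authors' software added to the table were not used. No replicate values were at hand for an SD or a new test, and every difference below is a difference between combined values. As a check of the labels, *Sin3A* had 2319 FPKM in SIN3 187HA cells and 56.9 FPKM in S2 cells. Of 10 hemocyte marker genes, 9 reached 1 FPKM in at least 1 group. Of these, 2 were at least 2-fold higher and 4 at least 2-fold lower in SIN3 187HA cells. The shares over all 8496 rows that reached 1 FPKM were 11.3% higher and 10.8% lower. The summed level of the 10 marker genes was 547 FPKM in SIN3 187HA cells and 1260 FPKM in S2 cells. Most of that gap was *He*, with 72.7 FPKM in SIN3 187HA cells and 766 FPKM in S2 cells, and the other 9 summed to 475 FPKM in SIN3 187HA cells and 494 FPKM in S2 cells. *Pxn*, *NimC1* and *Cg25C* were also lower, whereas *Ppn* was higher, with 46.4 FPKM in SIN3 187HA cells and 3.58 FPKM in S2 cells, as was the row of *ush* and *MED15*, with 169 FPKM in SIN3 187HA cells and 82.4 FPKM in S2 cells. *Hml*, a defining marker of larval hemocytes, was near 0, with 0.676 FPKM in SIN3 187HA cells and 0.520 FPKM in S2 cells. The highest value among the 8 fat body markers was 1.13 FPKM, in SIN3 187HA cells. The 6 neural markers summed to 11.5 FPKM in SIN3 187HA cells and 3.01 FPKM in S2 cells. Of the 3 that reached 1 FPKM in at least 1 group, 2 were at least 2-fold higher in SIN3 187HA cells. These were *elav*, with 6.74 FPKM in SIN3 187HA cells and 2.39 FPKM in S2 cells, and *brp*, with 3.06 and 0.0647 FPKM. *brp* passed 1 FPKM only in SIN3 187HA cells. The 4 epithelial markers summed to 172 FPKM in SIN3 187HA cells and 251 FPKM in S2 cells. Most of the epithelial sum was *cora*, whereas *Fas3*, the only one of the 4 past 2-fold, had 0.204 FPKM in SIN3 187HA cells and 16.5 FPKM in S2 cells. The 6 muscle markers summed to 11.8 FPKM in SIN3 187HA cells and 20.7 FPKM in S2 cells, and the 4 germline markers to 16.1 FPKM in SIN3 187HA cells and 14.0 FPKM in S2 cells. The part of these markers in the differences below was not tested. Fewer cells of a kind and less RNA per cell cannot be told apart in such bulk samples.

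The levels spanned more than 4 orders of magnitude, and they fell into 5 rows that were clearly expressed and 4 that were not. *Idgf1*, *Idgf2*, *Idgf3*, *Idgf4* and the joint row of *Adgf-A* and *Adgf-A2* reached 1 FPKM in at least 1 group. *Idgf5*, *Adgf-B*, *Adgf-C* and *Adgf-D* stayed below 1 FPKM in both. A row was counted as lower or higher when its log2 ratio of SIN3 187HA over S2 cells, with 1 FPKM added to each value, was at least 1 in size, which is a 2-fold difference. Of the 5 expressed rows, 2 were lower in SIN3 187HA cells (*Idgf2* and *Adgf-A* with *Adgf-A2*), 1 was higher (*Idgf4*) and 2 stayed within 2-fold (*Idgf1* and *Idgf3*). Among all 8496 rows with at least 1 FPKM in either group, 10.8% were lower and 11.3% were higher by the same rule, 22.1% in all, and the median log2 ratio was -0.03. With so few rows, these shares do not set the family apart. Of the 1051 rows with at least 100 FPKM in S2 cells, 18.8% were lower, a share that is raised by construction because the rows were selected on the S2 value.

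**Figure D1:**
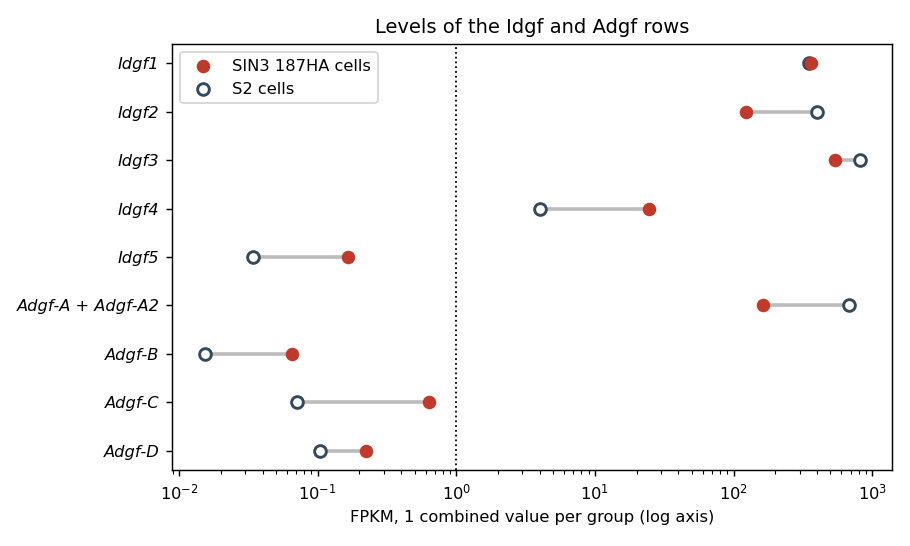
FPKM of each Idgf and Adgf row on a log axis, with filled points for SIN3 187HA cells and open points for S2 cells (1 combined value per group, no error). The dotted line marks 1 FPKM, and *Idgf2* (123 against 403 FPKM) and the *Adgf-A* row (163 against 678 FPKM) lie lower in SIN3 187HA cells, while *Idgf4* (24.6 against 4.04 FPKM) lies higher.

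*Idgf1*, *Idgf2* and *Idgf3* lie in tandem on chromosome arm 2L, all on the same strand. In the BDGP6 annotation the end of *Idgf1* is 536 bases from the start of *Idgf2*, and 398 bases separate *Idgf2* from *Idgf3*. In the dm3 coordinates of the table the joint locus of *Idgf1* and *Idgf2* is chr2L:16400169-16450510, which also takes in *CG5888*, and *Idgf3* is at chr2L:16450907-16453176.

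*Idgf1* had 361 FPKM in SIN3 187HA cells and 351 FPKM in S2 cells. Its log2 ratio was 0.04, the smallest difference among the 5 expressed rows. *Idgf2* had 123 FPKM in SIN3 187HA cells and 403 FPKM in S2 cells, which is 3.27-fold lower (log2 ratio -1.70). *Idgf2* was therefore the more abundant of the pair in S2 cells and the less abundant in SIN3 187HA cells: its level was 0.341 times that of *Idgf1* in SIN3 187HA cells and 1.15 times that of *Idgf1* in S2 cells. *Idgf3* was the most abundant of the 9 rows in both groups, with 538 FPKM in SIN3 187HA cells and 813 FPKM in S2 cells. Its log2 ratio of -0.60 did not reach 2-fold. *Idgf3* ranked 186th of all rows in SIN3 187HA cells and 146th in S2 cells.

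The 3 tandem genes thus differed among themselves. The log2 ratios of *Idgf1* and *Idgf2* lay 1.74 apart. Of 8378 pairs of rows that follow each other along a chromosome arm, 13.8% lay at least that far apart, and the median pair differed by 0.52, so a gap of this size between neighbours was uncommon but not rare in the table.

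*Idgf4* lies on the X chromosome, apart from the others, at chrX:9822299-9825012 of dm3. It had 24.6 FPKM in SIN3 187HA cells and 4.04 FPKM in S2 cells, which is 6.08-fold higher, with a log2 ratio of 2.34 after 1 FPKM was added. It was the only one of the expressed Idgf genes that was at least 2-fold higher in SIN3 187HA cells. Its level remained far below that of its relatives. *Idgf3* exceeded it 21.9-fold in SIN3 187HA cells and 201-fold in S2 cells. *Idgf5*, on chromosome 2R, had 0.167 FPKM in SIN3 187HA cells and 0.0342 FPKM in S2 cells.

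Added together, the 5 Idgf members had 1047 FPKM in SIN3 187HA cells and 1571 FPKM in S2 cells. This sum leaves out *CG5210*, now named *Idgf6*, whose level is given with the chitinases below. *Idgf3* made up about the same share of the sum in both, with 51.4% in SIN3 187HA cells and 51.7% in S2 cells. The share of *Idgf2* was 11.8% in SIN3 187HA cells and 25.6% in S2 cells. *Idgf1* made up 34.5% in SIN3 187HA cells and 22.4% in S2 cells, although its own level was nearly equal. *Idgf4* contributed 2.35% in SIN3 187HA cells and 0.257% in S2 cells. The smaller sum in SIN3 187HA cells thus came from *Idgf2* and *Idgf3*.

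**Figure D2:**
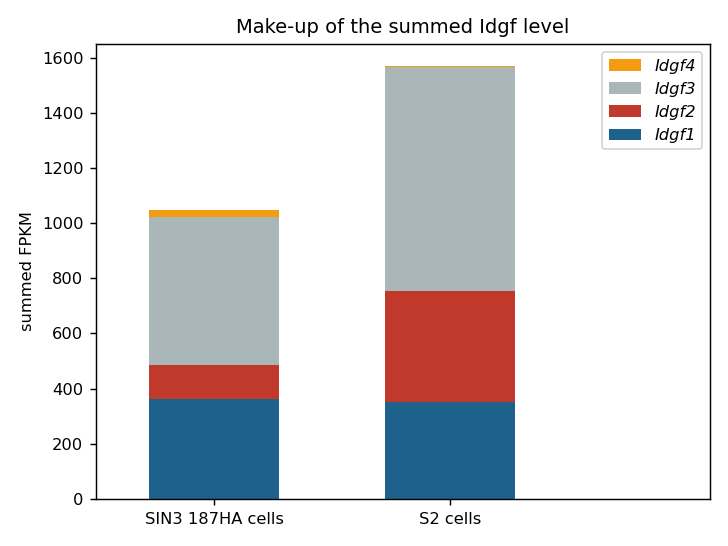
Summed FPKM of *Idgf1* to *Idgf4* in SIN3 187HA cells (left) and S2 cells (right), stacked by gene. The block of *Idgf2* takes 11.8% of the sum in SIN3 187HA cells and 25.6% in S2 cells, and *Idgf4* is visible only in SIN3 187HA cells. *Idgf5* is below 1 FPKM and is not drawn.

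*Adgf-A* and *Adgf-A2* lie on chromosome arm 3L, at chr3L:17744831-17757258 of dm3. In the BDGP6 annotation both are on the minus strand, and *Adgf-A2* lies inside the span of *Adgf-A*. All 2 annotated transcripts of *Adgf-A* and 2 of the 3 of *Adgf-A2* begin with the same exon of 97 bases, so a fragment from that exon fits both genes. Their joint row had 163 FPKM in SIN3 187HA cells and 678 FPKM in S2 cells. It was 4.16-fold lower in SIN3 187HA cells (log2 ratio -2.05), the lowest ratio among the 9 rows. The row ranked 562nd in SIN3 187HA cells and 169th in S2 cells.

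*CG32181* and *CG32182* lie inside the spans of both *Adgf-A* and *Adgf-A2*, run on the opposite strand and share no exon base with either. *CG32182* had 0.418 FPKM in SIN3 187HA cells and 1.73 FPKM in S2 cells. *CG32181* had 0.304 FPKM in SIN3 187HA cells and 1.25 FPKM in S2 cells. Measured against the *Adgf-A* row, *CG32182* stood at 0.257% of its level in SIN3 187HA cells and at 0.256% in S2 cells, and *CG32181* at 0.186% in SIN3 187HA cells and 0.185% in S2 cells. The 3 rows of this locus were lower in nearly the same proportion, by 4.16-fold, 4.14-fold and 4.13-fold without a pseudocount. The library kit does not mark strand, so reads of introns of *Adgf-A* or *Adgf-A2* and reads of these small genes cannot be told apart.

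The remaining Adgf genes were barely detected. *Adgf-B*, next to *Adgf-A* on 3L, had 0.0655 FPKM in SIN3 187HA cells and 0.0154 FPKM in S2 cells. *Adgf-C*, on 3R at chr3R:9532479-9534851, had 0.632 FPKM in SIN3 187HA cells and 0.0714 FPKM in S2 cells. *Adgf-D*, its neighbour on the opposite strand, had 0.222 FPKM in SIN3 187HA cells and 0.103 FPKM in S2 cells. The depth behind such values was estimated from the smallest steps in the table. For genes with 1 annotated transcript longer than 1500 bases, FPKM was multiplied by length in kilobases, and values above 0 and up to 0.03 were kept. The median of these values was 0.0224 in SIN3 187HA cells (66 genes) and 0.0237 in S2 cells (101 genes). This median was taken as a rough estimate of 1 fragment, an assumption that was not checked and that the limit of 0.03 bounds in advance. In these units *Adgf-B* had about 4.96 fragments in SIN3 187HA cells and 1.10 in S2 cells. *Adgf-C* had about 49.0 in SIN3 187HA cells and 5.22 in S2 cells, and *Adgf-D* had about 16.0 in SIN3 187HA cells and 7.02 in S2 cells. *Idgf5* had about 11.1 in SIN3 187HA cells and 2.15 in S2 cells. All 4 of these rows had the higher value in SIN3 187HA cells, and for *Adgf-C* the gap was the widest. With so few fragments in S2 cells, the size of these differences depended on the pseudocount and cannot be read as a fold change. The share of all rows below 1 FPKM that had the higher value in SIN3 187HA cells was not computed. The shared direction of these 4 rows is therefore not read as a trait of the family.

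The order of the levels differed between the groups. In SIN3 187HA cells it ran from *Idgf3* through *Idgf1*, the *Adgf-A* row and *Idgf2* to *Idgf4*. In S2 cells it ran from *Idgf3* through the *Adgf-A* row, *Idgf2* and *Idgf1* to *Idgf4*. Without replicate values it could not be said which neighbours in this order lie within each other's spread, and *Idgf2* and *Idgf1* in S2 cells, at 403 and 351 FPKM, were close.

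The genes around each expressed member were then examined, to see whether a member differed from its surroundings. For each member the 12 nearest rows on either side with at least 1 FPKM in either group were taken, leaving out rows of the same locus and other members. The 24 rows around the Idgf cluster, taken from *Idgf2*, had a median log2 ratio of -0.53, with 20 of the 24 below 0 and 5 at least 2-fold lower. *Idgf3* differed from the median of its own neighbours by -0.06, or by -0.28 with 5 rows on each side. *Idgf2* lay below the median (difference -1.17), and *Idgf1* lay 0.57 above it. *CG5888*, whose long span covers *Idgf1* and part of *Idgf2* from the opposite strand without sharing an exon base, had 131 FPKM in SIN3 187HA cells and 54.8 FPKM in S2 cells (log2 ratio 1.24), the direction opposite to that of *Idgf2*. On the other side of *Idgf3*, *dac* had 0.322 FPKM in SIN3 187HA cells and 0.169 FPKM in S2 cells.

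The 24 rows around *Idgf4* had a median log2 ratio of 0.14, none was at least 2-fold lower and 2 were at least 2-fold higher. *Idgf4* lay 2.20 above that median. The rows directly before and after it, *CG1986* and *CG1791*, are listed at 0 in both groups. The 24 rows around the *Adgf-A* row had a median of -0.32, with 15 below 0, 4 at least 2-fold lower and 2 at least 2-fold higher. The *Adgf-A* row differed from that median by -1.73, so most of its difference was not shared by the median of these 24 rows. They leave out *CG32181* and *CG32182*, which overlap the *Adgf-A* row and were lower in nearly the same proportion.

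**Figure D3:**
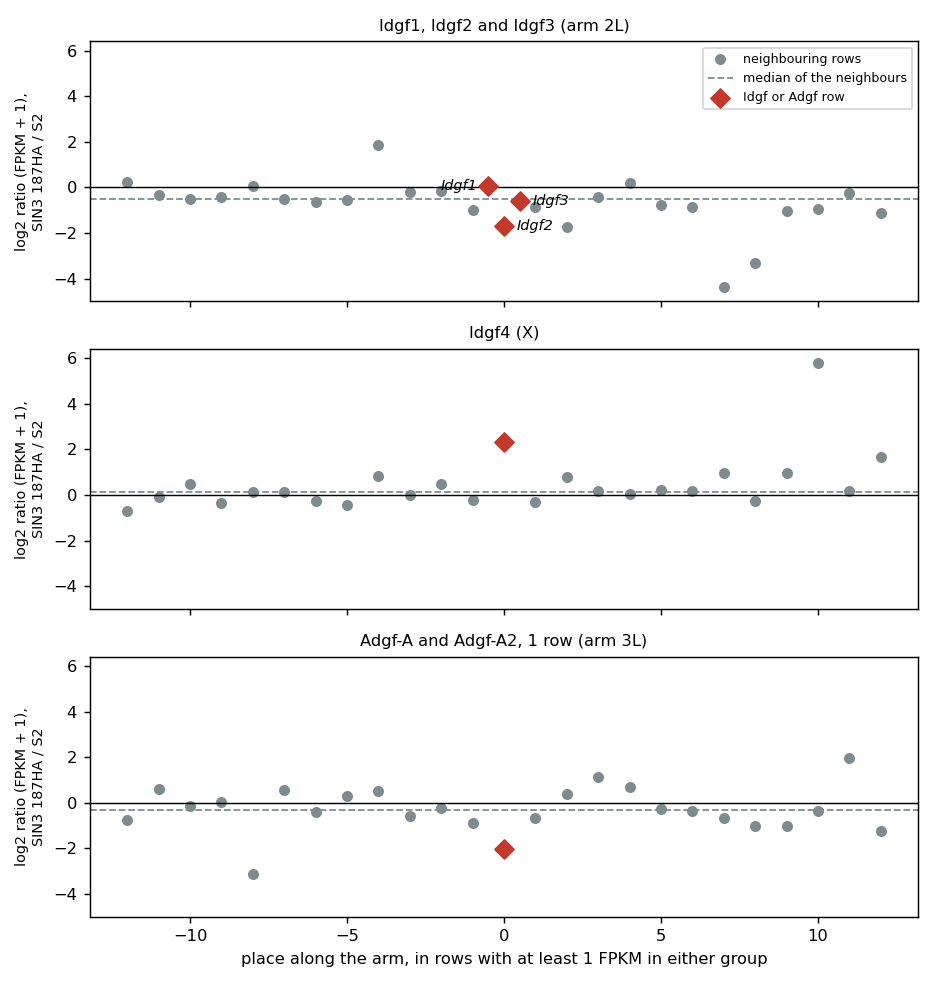
Log2 ratio of SIN3 187HA over S2 cells (FPKM + 1) for the Idgf and Adgf rows (diamonds) and for the 12 nearest expressed rows on each side (grey points), in order along the arm and not to scale in bases, with the neighbours' median dashed. *Idgf4* lies 2.20 above its dashed line and the *Adgf-A* row lies at -2.05, under a dashed line at -0.32, whereas *Idgf3* lies close to its dashed line.

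The nearest relatives of the Idgf genes are the chitinases, enzymes that cut chitin. Of 11 genes listed for this family, 5 reached 1 FPKM in either group. Of these, 3 were at least 2-fold higher and 1 lower, beside 11.3% and 10.8% of all 8496 rows that reached 1 FPKM. The lower gene, and the most abundant by far, was *CG5210*, now named *Idgf6* in RefSeq and known before as *Chit* or *DS47*. By that name *CG5210* is an Idgf gene rather than a chitinase, although it is not among the 5 Idgf members described here. It had 1078 FPKM in SIN3 187HA cells and 2378 FPKM in S2 cells, which is 2.21-fold lower, with a log2 ratio of -1.14. It exceeded each of the 5 Idgf members in both groups. *Cht11*, *Cht9* and *Cht4* were at least 2-fold higher in SIN3 187HA cells at much smaller levels. *Cht11* had 18.3 FPKM in SIN3 187HA cells and 6.21 FPKM in S2 cells, *Cht9* had 9.29 FPKM in SIN3 187HA cells and 3.76 FPKM in S2 cells, and *Cht4* had 2.76 FPKM in SIN3 187HA cells and 0.752 FPKM in S2 cells. The other 6 stayed below 1 FPKM. *Cht4* passed the limit of 1 FPKM only in SIN3 187HA cells, where its value was high. So did *Cht12*, with 1.22 FPKM in SIN3 187HA cells and 0.192 FPKM in S2 cells. *Cht12* counted as within 2-fold only because 1 FPKM was added (log2 ratio 0.90).

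Adenosine outside the cell is formed from AMP by nucleotidases, passes through equilibrative transporters (Ent), binds the receptor AdoR and is broken down by Adgf proteins. Of 18 genes that handle adenosine and related nucleosides, 14 reached 1 FPKM in either group. Of these, 2 were at least 2-fold higher, 2 at least 2-fold lower and 10 within 2-fold, with a median log2 ratio of -0.29. Over all 8496 rows that reached 1 FPKM, 11.3% were higher and 10.8% lower. Both higher genes of the list were nucleotidases. *NT5E-2* had 33.6 FPKM in SIN3 187HA cells and 0.113 FPKM in S2 cells (log2 ratio 4.96 with 1 FPKM added), and *veil*, also known as *NT5E-1*, had 15.0 FPKM in SIN3 187HA cells and 1.75 FPKM in S2 cells (2.54). They lie side by side on 2R, so they are not independent of each other by position. *AdoR*, which encodes the adenosine receptor, had 0.0890 FPKM in SIN3 187HA cells and 2.56 FPKM in S2 cells, a low level in both (log2 ratio -1.71). *AdoR* passed the limit of 1 FPKM only in S2 cells, and *NT5E-2* passed it only in SIN3 187HA cells. *CG16758* had 17.2 FPKM in SIN3 187HA cells and 66.2 FPKM in S2 cells (-1.89).

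The other listed genes that reached 1 FPKM stayed within 2-fold after 1 FPKM was added. *CG32626* (*AMPdeam*) lay at that limit, with 58.8 FPKM in SIN3 187HA cells and 118 FPKM in S2 cells (log2 ratio -0.99). *Ada*, named for adenosine deaminase in RefSeq, had 18.3 FPKM in SIN3 187HA cells and 23.7 FPKM in S2 cells. The row of *Adgf-A* was thus 8.89 times as abundant as *Ada* in SIN3 187HA cells and 28.7 times as abundant in S2 cells. The adenosine kinase gene *CG11255* (*Adk2*) had 38.9 FPKM in SIN3 187HA cells and 42.2 FPKM in S2 cells. Of the transporters, *Ent2* had 71.6 FPKM in SIN3 187HA cells and 124 FPKM in S2 cells, and *Ent1* had 33.9 FPKM in SIN3 187HA cells and 42.3 FPKM in S2 cells. *Ent3* had 2.49 FPKM in SIN3 187HA cells and 1.14 FPKM in S2 cells.

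**Figure D4:**
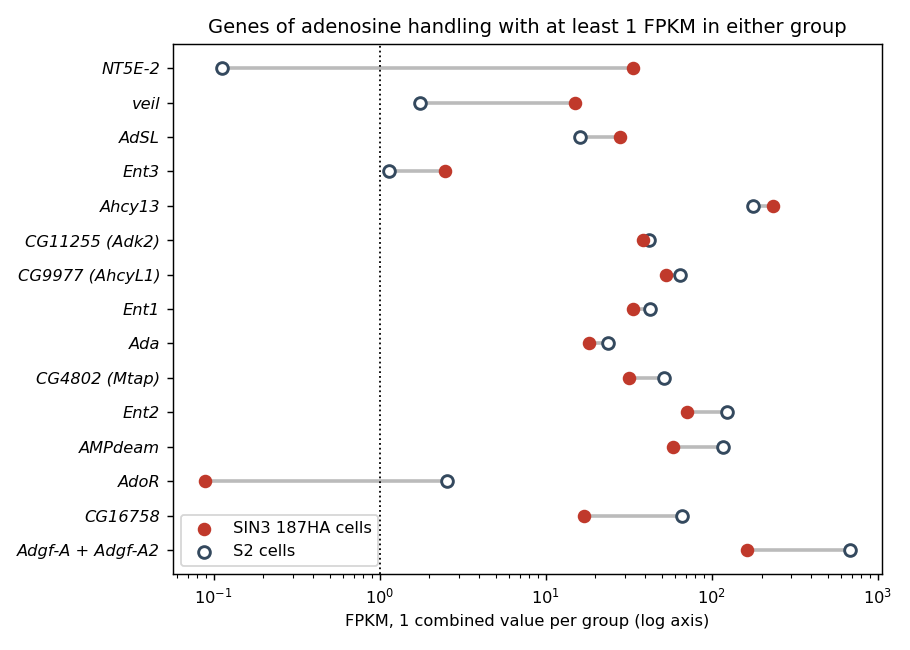
FPKM on a log axis of the genes of adenosine handling that reached 1 FPKM in either group, with the *Adgf-A* row, ordered by log2 ratio (filled, SIN3 187HA cells; open, S2 cells; 1 combined value each). The nucleotidase genes *NT5E-2* and *veil* are at the top with higher values in SIN3 187HA cells, and *AdoR*, *CG16758* and the *Adgf-A* row are at the bottom with lower ones.

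In the larval lymph gland, *Adgf-A* is known to act downstream of the receptor tyrosine kinase Pvr, its ligand Pvf1 and the STAT factor Stat92E, and to counter signalling through AdoR and protein kinase A. All 7 genes listed here for this route reached 1 FPKM in either group. They differed in both directions, with 2 higher, 3 lower and 2 within 2-fold. Of all 8496 rows with at least 1 FPKM in either group, 11.3% were higher and 10.8% lower. The list is short and was chosen with earlier results of these data known, so its counts were not tested against these shares. *Pvr* had 414 FPKM in SIN3 187HA cells and 183 FPKM in S2 cells (log2 ratio 1.18), and *Pvf1* had 3.90 FPKM in SIN3 187HA cells and 0.0532 FPKM in S2 cells (2.22). *Stat92E* had 73.9 FPKM in SIN3 187HA cells and 237 FPKM in S2 cells (-1.67). *Pka-C1*, the catalytic subunit of protein kinase A, had 38.4 FPKM in SIN3 187HA cells and 96.3 FPKM in S2 cells (-1.30), and *AdoR* was given above. *bip1* and *Nup98-96*, which are needed for *Pvr* expression in the gland, stayed within 2-fold. *Pvr* thus stood on the higher side, and *Stat92E* and the joint row of *Adgf-A* and *Adgf-A2* on the lower side. *Pvf1* was higher as well, but it passed the limit of 1 FPKM only in SIN3 187HA cells, and *AdoR* passed it only in S2 cells.

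Insulin signalling, with which Idgf proteins act together in culture, was listed with 20 genes, of which 15 reached 1 FPKM in either group. Of these, 3 were higher, 1 was lower and 11 stayed within 2-fold, with a median log2 ratio of -0.02. Beside them, 11.3% of all 8496 rows that reached 1 FPKM were higher and 10.8% lower. *Ilp6*, an insulin-like peptide, had 84.7 FPKM in SIN3 187HA cells and 30.2 FPKM in S2 cells (1.46). The receptor gene *InR* had 25.3 FPKM in SIN3 187HA cells and 9.77 FPKM in S2 cells (1.29). *Pdk1*, a kinase that activates Akt, had 176 FPKM in SIN3 187HA cells and 62.5 FPKM in S2 cells (1.48). *Pi3K92E*, the catalytic subunit of phosphoinositide kinase, had 55.8 FPKM in SIN3 187HA cells and 133 FPKM in S2 cells (-1.24). *ImpL2*, which encodes a secreted binder of insulin-like peptides, had 485 FPKM in SIN3 187HA cells and 644 FPKM in S2 cells (-0.41), within 2-fold. *Ilp5* counted as within 2-fold only because 1 FPKM was added (0.76). It had 1.10 FPKM in SIN3 187HA cells and 0.243 FPKM in S2 cells, and passed the limit of 1 FPKM only in SIN3 187HA cells.

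**Figure D5:**
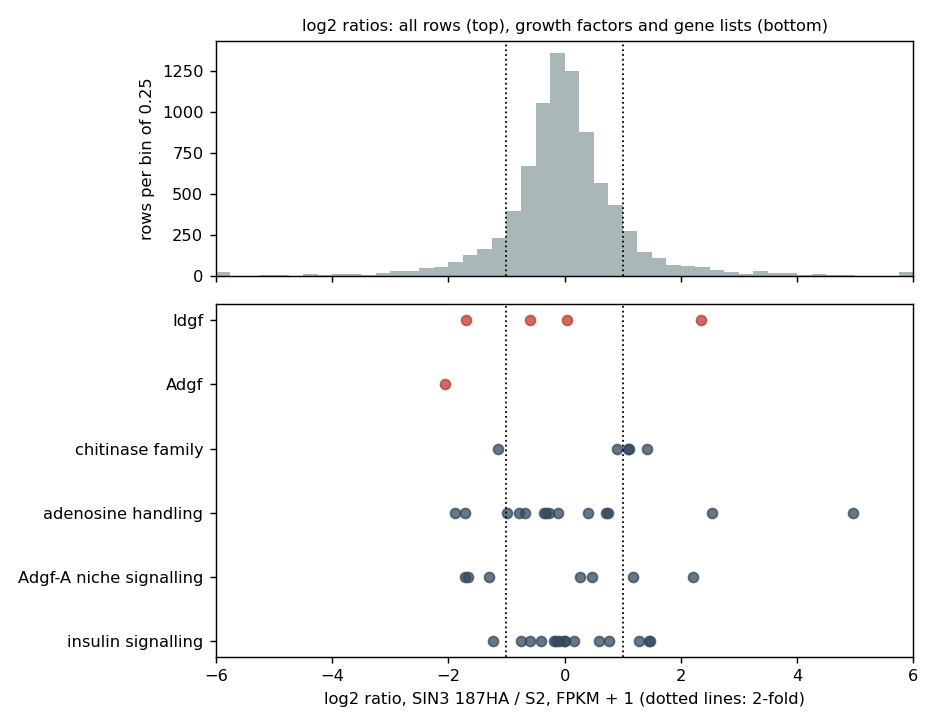
Log2 ratio of SIN3 187HA over S2 cells (FPKM + 1) for all 8496 rows with at least 1 FPKM in either group (top, values beyond 6 drawn at 6) and for the Idgf and Adgf rows and 4 gene lists that passed the same limit (bottom, 1 point a row). The dotted lines mark 2-fold; all rows center near 0, *Idgf4* lies to the right of the lines and *Idgf2* and the *Adgf-A* row lie to the left.

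The rows with the most similar pair of levels were sought by the distance between the log2(FPKM + 1) values of the 2 groups, which rests on 2 values per row. Nearest to *Idgf1* were *CG5390* (distance 0.03), *Bsg* (0.06) and *CG7816* (0.14). Nearest to *Idgf2* were *th* (0.16), *regucalcin* (0.19) and *Gp150* (0.21), and nearest to *Idgf4* were *CG13252* (0.14), *CG13101* (0.19) and *NetB* (0.21). *Idgf3* was closest to the row of *CG15547* and *Sap-r* (0.09), *smt3* (0.12) and *snoRNA:Or-CD12* (0.16). The *Adgf-A* row had no such close match, since *Atpalpha* (0.36), *Hydr2* (0.45) and *Ald* (0.47) were farther away. *Atpalpha* had 210 FPKM in SIN3 187HA cells and 691 FPKM in S2 cells.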

How the data were processed

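RNA-seq libraries were made from SIN3 187HA cells and S2 cells with the TruSeq RNA kit and read in pairs of 50 bases, with 3 biological replicates per group. The authors aligned the reads to dm3 with Bowtie2/Tophat, used Cufflinks for the levels of RefSeq genes and ran cuffdiff with default parameters, and tool versions are not given in the sources used here. The deposited FPKM values are 1 per row and group, scaled between libraries by cuffdiff. The table also holds cuffdiff's own fold changes, test statistics, p-values and q-values, which were not used, so no significance is given.

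From the FPKM values the log2 ratio of SIN3 187HA over S2 was computed with 1 FPKM added (Python 3.11.15, pandas 2.3.3, numpy 2.4.6). The arithmetic and counting were checked on simulated data with known folds and no noise, which says nothing about replicate spread or scarce rows. Rows with at least 1 FPKM in either group were counted as higher or lower at 2-fold. Of the 14540 rows, 3 with the status HIDATA, whose level cuffdiff did not estimate, were left out. Loci are in dm3, counted from 1. The BDGP6 annotation and the RefSeq gene table gave gene order, synonyms, lengths and overlaps only. List symbols were matched to rows by symbol or by a RefSeq synonym, and all were matched.

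The genes named are the 10 members, *Sin3A*, list genes past 2-fold, the rows next to members, and the 3 rows most like each expressed member. Any further gene was picked with its values in view. The members and lists were chosen with earlier results of these data known. Alternatives were other pseudocounts, filters, fold limits, scalings and neighbour numbers. A list item that is withheld is not reported here and was left out of its list's counts. No sequences are printed.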

Additional observations from a re-analysis of the deposited data

How the results depend on the processing

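The deposited values join 3 replicates per group, so leaving out a replicate was not possible and no error can be given for any value. No paired analysis was possible because the table carries no value per replicate. The 5 expressed rows kept their direction, and *Idgf2*, *Idgf4* and the *Adgf-A* row stayed past 2-fold, with 0.1 FPKM or no pseudocount, with centring on the median and with upper-quartile scaling. Distances from the neighbours' median kept their sign with 5 rows on each side or a pseudocount of 0.1, and that of *Idgf3* was -0.28 with 5 rows. The Adgf count became 0 when only rows naming 1 gene were kept, because *Adgf-A* shares its row. The 4 scarce rows depended on the pseudocount. Without one the log2 ratios were 2.29 for *Idgf5*, 2.09 for *Adgf-B*, 3.15 for *Adgf-C* and 1.11 for *Adgf-D*, and with 0.1 FPKM they were 0.99 for *Idgf5* and 2.09 for *Adgf-C*. The background share of higher rows was 6.59% without a filter, 7.51% with 1 FPKM in both groups and 20.7% at 1.5-fold. That of lower rows was 6.34% without a filter and 20% at 1.5-fold. Among rows with at least 100 FPKM in S2 cells, a limit chosen after seeing the data, 2.66% were higher and 18.8% lower. Choosing rows by their S2 level favours the lower side by construction. The ratios of the scarce rows rest on few fragments and are given only to show this dependence.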
